A study of Mus musculus with 8 samples.

Results

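Thrombospondins and other matricellular proteins were examined as a set of 10 genes, Thbs1, Thbs2, Thbs3, Cyr61, Ctgf, Postn, Tnc, Sparc, Spp1 and Fn1, in RNA sequencing of microvascular endothelial cells (ECs) from mice with and without endothelial LRP1. Members were taken by symbol, and all 10 were found among the 22520 genes of the deposited expression table. By its label, each of the 8 libraries mixed cells of 3 organs, heart, lung and liver, and all mice were C57BL/6 pups on postnatal day 14. The 4 LRP1 KO libraries came from LRP1 f/f; Cdh5-CreER+/- mice, in which a tamoxifen-inducible Cre recombinase driven by the Cdh5 promoter deletes the floxed Lrp1 alleles in ECs. The 4 WT libraries came from LRP1 f/f; Cdh5-CreER-/- littermates, so the floxed alleles were shared by both groups and the Cre transgene was not. According to the study's methods, ECs were pulled down with beads against PECAM-1, and the study's text speaks of separate liver and heart-and-lung ECs, which the labels do not tell apart. The labels do not say whether the libraries of a group came from separate animals, so that p-values measure the spread between these libraries, which may be technical.

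Matricellular proteins are secreted into the extracellular matrix, where they act mainly on cells, growth factors and proteases and contribute little to its mechanical structure. Thrombospondins 1 and 2 restrain the growth of vessels through receptors such as CD36 and CD47. The CCN proteins CYR61 (CCN1) and CTGF (CCN2) bind integrins, and their genes are known early targets of the transcriptional regulators YAP and SRF. LRP1 is an endocytic receptor, and several matricellular proteins, thrombospondins and CTGF among them, are known ligands that it removes from the cell surface.

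Postn, Ctgf and Cyr61 rose in LRP1 KO libraries, to 2.01, 1.50 and 1.43 times their WT means. For Ctgf, 1 KO library lay within the WT range, and the calls of Ctgf and Cyr61 were each lost in 7 of 13 alternative fits. Tnc had a KO mean 2.15 times the WT mean, and the difference did not pass the test. It passed in 1 of 13 alternative fits, the one without LRP1 KO 4, which lay among the WT libraries. Thbs1 and Thbs3 had lower means in LRP1 KO libraries, at 74.8% and 64.2% of WT, and neither difference passed. Sparc, the most abundant member, held the same set of values in both groups, and Fn1, Spp1 and Thbs2 differed by less than the spread between libraries.

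Promoter sequence was at hand for 7 of the 10 members, from RefSeq (GRCm38.p6), and Thbs1, Ctgf and Fn1 were not among them. The 250 bases before the start of Cyr61 (chr3:145649986-145650235, - strand), Postn (chr3:54360857-54361106, + strand) and Tnc (chr4:64047016-64047265, - strand) are shown 5′ to 3′, because the mean levels of these 3 genes lay furthest above WT among the 7. Capitals mark matches to TATAAA, the TATA box, or to GGAATG, the core bound by the TEAD partners of YAP, each sought on both strands.
Cyr61: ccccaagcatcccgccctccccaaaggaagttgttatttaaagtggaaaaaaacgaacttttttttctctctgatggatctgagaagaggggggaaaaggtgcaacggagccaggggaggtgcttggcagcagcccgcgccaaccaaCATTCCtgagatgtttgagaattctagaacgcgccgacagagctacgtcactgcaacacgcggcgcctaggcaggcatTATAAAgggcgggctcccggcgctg
Postn: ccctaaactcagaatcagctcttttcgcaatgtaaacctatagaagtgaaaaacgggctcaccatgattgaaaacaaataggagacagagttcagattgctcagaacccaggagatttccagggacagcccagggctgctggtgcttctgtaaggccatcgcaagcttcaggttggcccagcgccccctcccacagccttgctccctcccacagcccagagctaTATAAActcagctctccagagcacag
Tnc: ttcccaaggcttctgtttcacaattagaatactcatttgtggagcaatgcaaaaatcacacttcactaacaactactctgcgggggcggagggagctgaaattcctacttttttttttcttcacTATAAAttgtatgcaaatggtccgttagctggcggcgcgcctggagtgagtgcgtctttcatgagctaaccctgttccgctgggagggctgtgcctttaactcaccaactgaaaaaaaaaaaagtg
In Cyr61 the TATA letters lay 25 to 20 bases before the start, and in Postn 26 to 21 bases before it. The match in Tnc lay further away, at 126 to 121 bases. Thbs2 (opposite strand, 126 to 121 bases before the start) and Spp1 (211 to 206 bases) also held these letters at a distance, which made 5 of 7 members, 2 of them with a match at 26 bases or closer to the start. The letters were present anywhere in the window in 12.4% of the 32851 promoters in the RefSeq table. The share of promoters with a match near the start was not computed. The TEAD core was found in 1 of 7 members, Cyr61, as CATTCC on the opposite strand at 103 to 98 bases before the start, and in 12.6% of all promoters. None of the 7 windows held the AP-1 motif TGANTCA, the FoxO motif GTAAACA or the CArG box of SRF, which were present in 6.75%, 3.17% and 1.47% of all promoters. The start used for Sparc lay 3103 bases from its annotated gene start, and the other starts lay at most 27 bases from theirs. Postn, Tnc and Spp1 had 2 promoter entries each, of which the one nearest to the annotated start was used. These matches describe the letters of the windows and are not measured binding sites.

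Lrp1 itself fell from between 103 and 140 FPKM in WT to between 2.79 and 7.72 FPKM in LRP1 KO libraries (log2 fold change -4.45, SE 0.23, limma adjusted p 8.89e-05), in the direction of the labels. FPKM counts fragments relative to transcript length and to the mapped fragments of a library, so it is a level corrected for length. It is the inferred unit of the table, and the sequencing depth behind it is unknown. Sorted values were nearly the same in every column, as after quantile normalization, and the column sums spanned 503571 to 504112 FPKM. In all libraries the summed markers of fibroblasts (2046 to 3661 FPKM) and mesothelium (1345 to 1932) stood far above those of ECs (112 to 468), and the EC markers Cdh5 and Pecam1 were at 6.80 to 11.2 FPKM in WT libraries. The KO libraries were uneven, with EC marker sums of 468, 263, 328 and 112 FPKM in LRP1 KO 1 to 4 against 112 to 126 in WT. On the first principal component, which held 60.8% of the variance, LRP1 KO 4 lay at 0.1, between the other KO libraries (17.2 to 27.3) and the WT libraries (-24.1 to -12.9). The change of each member is therefore also given without LRP1 KO 4.

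The 10 genes together made 0.903% to 1.17% of the summed FPKM of a library, and Sparc alone made the larger share of that. In WT libraries the order of the mean levels was Sparc, Thbs1, Fn1, Ctgf, Cyr61, Spp1, Postn, Thbs2, Tnc and Thbs3. Neighbours whose WT libraries overlapped were Thbs1 with Fn1, Fn1 with Ctgf, Spp1 with Postn, and Thbs2 with Tnc. In LRP1 KO libraries Fn1 stood above Thbs1, Postn above Spp1, and Tnc above Thbs2, and the libraries of each of these pairs overlapped. The mean levels spanned 877-fold in WT, from Thbs3 at 3.88 FPKM to Sparc at 3400 FPKM.

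**Figure D1:**
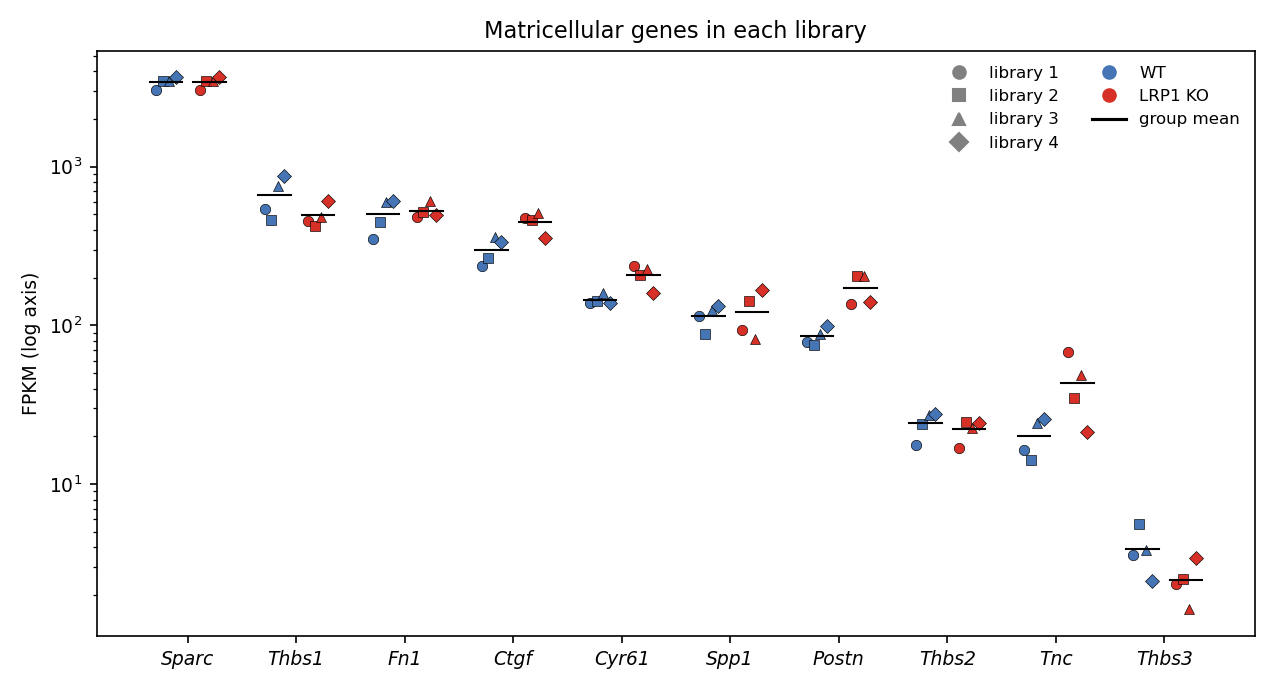
FPKM (log axis) of the 10 matricellular genes in the 4 WT (blue) and 4 LRP1 KO (red) libraries, ordered by WT mean, with marker shapes for library numbers 1 to 4 and black lines for group means. The KO points of Cyr61 and Postn all lie above the WT points, those of Ctgf and Tnc do so for 3 of 4 libraries, and Sparc has the same points in both groups.

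All 10 members passed the filter on low values (at least 1 FPKM in at least 4 libraries), with 11389 genes tested. At an adjusted p under 0.05 (limma on log2 of FPKM + 1, adjusted over all genes tested), 3 of 10 members were called, against 13.6% of all genes tested. All 3 were higher in LRP1 KO libraries, a direction called for 6.27% of all genes, and no member was called lower, against 7.31%. At an unadjusted p under 0.05 there were 4 members higher and 1 lower, against 15.5% and 18.2% of all genes (33.7% in all). The count of members called fell to 1, Postn, when WT 1, WT 2, LRP1 KO 1, LRP1 KO 2 or LRP1 KO 3 was left out or no filter on low values was used, and was 4 without LRP1 KO 4, where 2959 genes were called in place of 1547. When a change of at least 2-fold on the fitted scale was also required, 0 members passed, against 1.62% of all genes (1.12% higher and 0.5% lower), and Postn fell just short of that limit. The libraries of the groups did not overlap for 2 members, Postn and Cyr61, against 19.6% of all genes, and both had LRP1 KO above, which held for 8.84% of all genes. The median log2 fold change was 0.063 over the members and -0.0091 over all genes tested. These counts are a description of 10 genes chosen with earlier results known.

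Thbs1, Thbs2 and Thbs3 encode secreted glycoproteins that bind calcium. Thrombospondin 1 and 2 form trimers with anti-angiogenic repeats, and thrombospondin 3 is a pentamer without these repeats. Thbs1 (ENSMUSG00000040152, chr2:118111876-118127133 of GRCm38, + strand) measured 542, 460, 758 and 869 FPKM across WT 1 to 4, and 456, 424, 479 and 607 FPKM across LRP1 KO 1 to 4. LRP1 KO 1 and 2 lay below every WT library, and LRP1 KO 3 and 4 lay within the WT range. The log2 fold change was -0.39 (SE 0.20, 95% interval -0.83 to 0.06, adjusted p 0.198), and the exact two-sided permutation p was 0.20. Without LRP1 KO 4 the change was -0.49 (adjusted p 0.101). With the library number as a block, which compares libraries of equal number, the SE was 0.099 and the adjusted p 0.0617. Whether equal numbers pair the libraries is not known. The group means were 657 ± 189 and 492 ± 80.4 FPKM (SD, n = 4 each), so that the WT libraries were the more dispersed.

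Thbs2 (chr17:14665500-14694235, - strand) measured 17.7, 23.9, 27.4 and 27.5 FPKM for the WT group and 17.0, 24.6, 22.5 and 24.3 FPKM for the LRP1 KO group. The groups overlapped almost throughout, with library 1 the lowest of each. The difference was -0.12 on the log2 scale, with an interval of -0.46 to 0.23, and -0.16 without LRP1 KO 4. Thbs3 (chr3:89215180-89226837, + strand), the least abundant member, measured 3.60, 5.57, 3.87 and 2.46 FPKM for the WT group and 2.34, 2.54, 1.63 and 3.45 FPKM for the LRP1 KO group. Of the KO libraries, 1 and 3 lay below all WT libraries. The log2 fold change of Thbs3 was -0.47 (SE 0.21, interval -0.93 to -0.01), with an unadjusted p of 0.0471, an adjusted p of 0.143 and an exact permutation p of 0.0857. It was -0.60 (adjusted p 0.0592) without LRP1 KO 4. Of the exonic bases of Thbs3, 6.59% are shared with Mtx1 on the opposite strand, and strand use in counting is not given in the sources used here. The level of Thbs1 was 27.2 times that of Thbs2 in WT and 22.2 times in LRP1 KO libraries on the per-length scale, so that Thbs1 made up nearly all transcript of these 3 thrombospondins.

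Cyr61 (annotated as Ccn1, chr3:145646976-145649981, - strand) measured 137, 143, 160 and 138 FPKM for the WT group and 237, 206, 225 and 161 FPKM for the LRP1 KO group. Every KO library lay above every WT library, LRP1 KO 4 by the narrowest margin (160.9 against 160.3 FPKM in WT 3). The log2 fold change was 0.50 (SE 0.11, interval 0.25 to 0.76, adjusted p 0.0245), and the exact permutation p was 0.0286, the smallest that 4 against 4 libraries can give. Without LRP1 KO 4 the change was 0.62 (adjusted p 0.00101). The call was lost when WT 1, WT 2, WT 4, LRP1 KO 1, LRP1 KO 2 or LRP1 KO 3 was left out, with adjusted p between 0.0551 and 0.0734 over these 6 fits, and at an adjusted p of 0.0510 when no filter on low values was used.

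Ctgf (annotated as Ccn2, chr10:24595442-24598683, + strand) measured 236, 264, 359 and 334 FPKM for the WT group and 471, 458, 509 and 355 FPKM for the LRP1 KO group. LRP1 KO 1 to 3 stood above all WT libraries, and LRP1 KO 4 fell between WT 3 and WT 4. Ctgf rose by 0.59 on the log2 scale (SE 0.15, interval 0.25 to 0.93, adjusted p 0.0335, exact permutation p 0.0571). Without LRP1 KO 4 the estimate was 0.70 (adjusted p 0.00779). Leaving out WT 1, WT 2 or any of LRP1 KO 1 to 3 ended the call, with adjusted p of 0.0721 to 0.0980. Testing without the filter on low values (0.0697) or with the library number as a block (0.0547) ended it too. An antisense transcript, Gm15270, covers 23.2% of the exonic bases of Ctgf, and reads from this shared part cannot be told apart without strand.

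Across the 8 libraries, the difference of Cyr61 from its own WT mean followed that of Ctgf to within a root mean square of 0.16 on the log2 scale. Among the pairs that Cyr61 or Ctgf makes with the 9 other members, the next closest was Ctgf with Postn, at 0.34. The tested genes nearest to Cyr61 by this measure were Tpd52 (0.0751) and Snx18 (0.0766), and those nearest to Ctgf were Cacna2d1 (0.0487) and Gm4245 (0.055). Tpd52, for instance, had 12.5 to 14.5 FPKM in WT and 15.2 to 24.1 FPKM in LRP1 KO libraries, with LRP1 KO 4 the lowest of the KO libraries as in Cyr61.

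Postn encodes periostin, a fasciclin-domain protein that binds integrins and collagen and is known from remodelling connective tissue. Postn (chr3:54361109-54391037, + strand) measured 78.8, 75.2, 88.3 and 98.9 FPKM for the WT group and 136, 204, 205 and 141 FPKM for the LRP1 KO group. All KO libraries were above all WT libraries, LRP1 KO 2 and 3 most of all, and LRP1 KO 4 was close to LRP1 KO 1. Group means were 85.3 ± 10.6 and 171 ± 38.3 FPKM (SD, n = 4 each). The log2 fold change was 0.98 (SE 0.15, interval 0.63 to 1.32, adjusted p 0.00663, exact permutation p 0.0286, the smallest possible). Postn was the only member called in all 13 alternative fits, in which its change stayed between 0.88 and 1.08 and its adjusted p between 0.00217 and 0.0274. The change was 1.06 without LRP1 KO 4. Its nearest patterns over the 8 libraries were those of Aspn, which encodes the matrix proteoglycan asporin (root mean square difference 0.0984), and Syk, a tyrosine kinase of blood cells (0.123).

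Tnc encodes tenascin-C, a large hexameric glycoprotein that is sparse in most resting adult tissues and appears in wounds and developing tissue. Its levels (chr4:63959785-64047015, - strand) were 16.3, 14.3, 24.3 and 25.6 FPKM in WT libraries and 68.0, 34.8, 48.7 and 21.1 FPKM in LRP1 KO libraries. LRP1 KO 1 to 3 exceeded every WT library, whereas LRP1 KO 4 lay among the WT libraries. The KO libraries spanned 3.22-fold, the widest range of any member in a group. The log2 fold change was 0.98 (SE 0.33, interval 0.25 to 1.72), close to that of Postn, but with an adjusted p of 0.0717 and an exact permutation p of 0.0857. With LRP1 KO 4 left out the change was 1.28 and passed the test (adjusted p 0.00829). In the other 12 alternative fits Tnc did not pass, with adjusted p from 0.0702 to 0.180.

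The position of LRP1 KO 4 thus differed from member to member. Its difference from the WT mean, on the log2 scale, was 8.59% of the mean difference of LRP1 KO 1 to 3 for Tnc, 25.3% for Cyr61, 38.5% for Ctgf and 68.3% for Postn. The plot of differences by library shows the same order beside the marker sums. The EC markers of LRP1 KO 4 were at the WT level, its fibroblast sum (3261 FPKM) was the highest of the KO group, and its macrophage sum (458 FPKM) was well above the WT range of 54.6 to 92.8. In these bulk libraries, fewer cells of a type and less RNA per cell cannot be told apart.

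**Figure D2:**
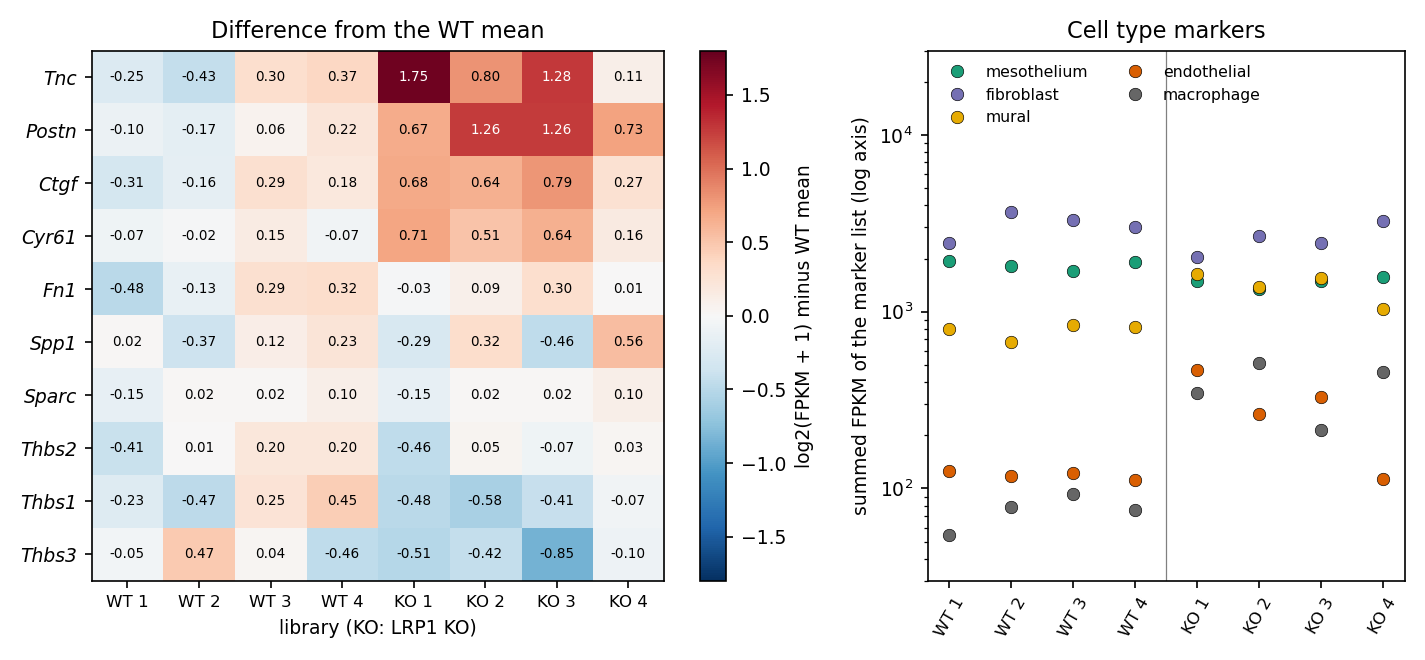
Left, difference of log2(FPKM + 1) from the WT mean for each matricellular gene (rows) in each library (columns), printed in the cells and coloured from blue (below WT) to red (above WT). Right, summed FPKM (log axis) of the marker lists of 5 cell types in the same libraries. LRP1 KO 4 differs little from WT for Tnc (0.11) and Cyr61 (0.16), more for Postn (0.73), and has an EC marker sum of 112 FPKM, as in WT.

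Sparc, which encodes osteonectin, a collagen-binding glycoprotein, measured 3055, 3451, 3451 and 3645 FPKM in WT libraries 1 to 4 and the same 4 values in LRP1 KO libraries 1 to 4. Equal values at equal ranks come with the scaling of the table, which does not itself set the rank that Sparc takes in a library. Sparc (chr11:55394500-55423183, - strand) ranked 11, 9, 9 and 8 among all genes in both groups, and at each of the 12 highest ranks all 8 libraries held 1 and the same value. From rank 7 to rank 12, neighbouring values stand 5.3% to 8.4% apart, so that smaller differences would not be seen unless they changed the rank. The fitted change was 0 with an interval of -0.19 to 0.19 on the log2 scale, and -0.034 without LRP1 KO 4.

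Spp1 encodes osteopontin, a phosphoprotein that binds integrins and CD44 and is made by macrophages and bone cells among others. Spp1 (chr5:104435118-104441050, + strand) measured 115, 87.9, 124 and 133 FPKM for the WT group and 92.9, 142, 82.3 and 168 FPKM for the LRP1 KO group. The KO libraries lay on both sides of the WT libraries, LRP1 KO 2 and 4 above all of them and LRP1 KO 3 below. The log2 fold change was 0.03 (SE 0.22), and its interval, -0.47 to 0.54, leaves room for changes in either direction. The sign turned without LRP1 KO 4 (-0.14, adjusted p 0.620). Of its transcript, 9.05% of stretches of 50 bases are shared with the overlapping gene model Gm42793, and no other member shared such a stretch with another gene.

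Fn1 encodes fibronectin, a main ligand of the integrins of ECs and a scaffold on which many matricellular proteins assemble. Fn1 (chr1:71585520-71653200, - strand) measured 349, 445, 597 and 611 FPKM for the WT group and 479, 519, 602 and 492 FPKM for the LRP1 KO group. All KO values lay within the WT range. The change was 0.09 (SE 0.17, interval -0.29 to 0.48, adjusted p 0.729), and 0.12 without LRP1 KO 4.

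**Figure D3:**
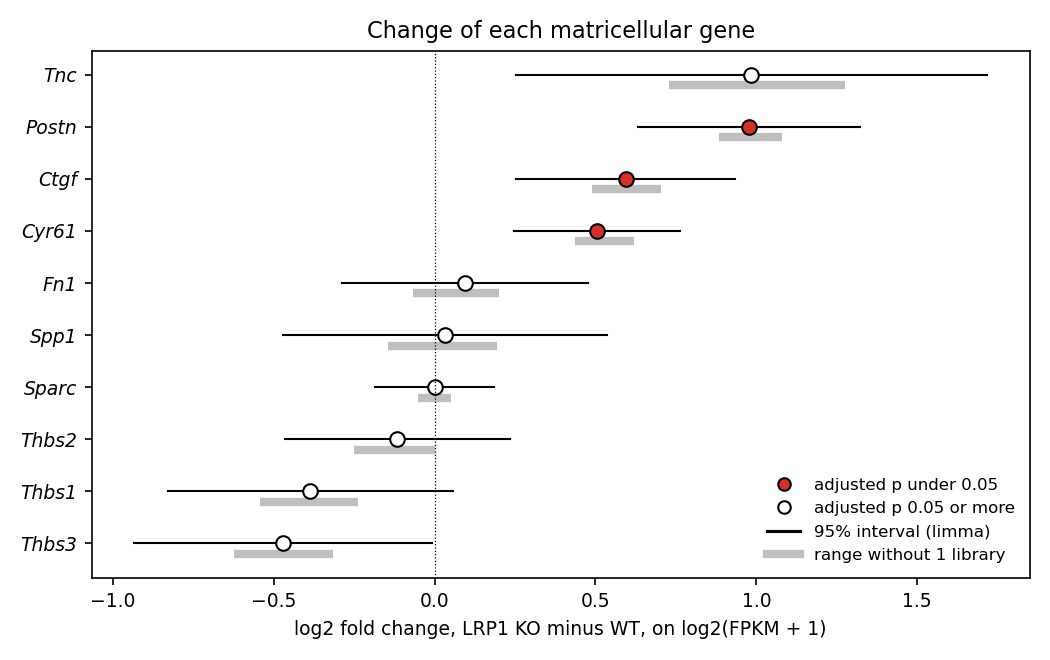
Log2 fold change (LRP1 KO minus WT, on log2 of FPKM + 1) of the 10 matricellular genes with limma 95% intervals as black lines, red points for an adjusted p under 0.05 and grey bars for the range of the estimate when 1 library is left out. Postn, Ctgf and Cyr61 pass the test, Tnc has the widest interval (0.25 to 1.72), and the intervals of Fn1, Spp1, Sparc, Thbs2 and Thbs1 include 0.

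The receptors of these proteins were taken as a list of 22 symbols, integrin chains, syndecans, CD36, CD44, CD47 and LRP1 among them, with 23 entries in the table and 20 tested. Of these, 7 were called, 6 higher and 1 lower, against 6.27% and 7.31% of all genes, and the median log2 fold change was 0.169. The 1 that fell was Lrp1. Cd36, the receptor through which thrombospondin 1 inhibits ECs, also a scavenger receptor of macrophages and microvessels, measured 0.765, 1.39, 1.56 and 1.43 FPKM for the WT group and 9.46, 12.5, 8.38 and 7.01 FPKM for the LRP1 KO group. Every KO library stood well above every WT library (log2 fold change 2.17, SE 0.17, adjusted p 0.000389), LRP1 KO 4 included.

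Itga6, the laminin receptor chain of ECs and other cells, measured 2.05 to 2.75 FPKM for the WT group and 13.9, 8.33, 11.4 and 4.37 FPKM for the LRP1 KO group (log2 fold change 1.49, SE 0.27, adjusted p 0.0111). Cd44, a receptor of hyaluronan and osteopontin, measured 7.66 to 12.4 FPKM for the WT group and 28.4, 21.5, 29.6 and 14.7 FPKM for the LRP1 KO group (1.08, SE 0.22, adjusted p 0.0170). For both genes LRP1 KO 4 was the lowest of the KO libraries and still above WT. Itga5, the fibronectin receptor chain, rose from between 36.7 and 45.4 FPKM in WT to between 56.6 and 74.5 FPKM in LRP1 KO libraries (0.70, SE 0.10, adjusted p 0.00459). Cd47, at 1 of its 2 gene IDs, and Sdc1 were the other receptors called higher. The count of receptors called was 11 without LRP1 KO 4 and 4 without WT 2, LRP1 KO 1, LRP1 KO 2 or LRP1 KO 3, while the count over all genes moved from 1547 to 2959 and to between 433 and 502.

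A list of 26 other matricellular genes had 15 tested, of which 6 were called, 3 in each direction, against 6.27% higher and 7.31% lower over all genes, with a median log2 fold change of -0.014. Smoc1 rose from between 1.72 and 2.35 FPKM in WT to between 2.34 and 6.00 FPKM in LRP1 KO libraries (log2 fold change 0.84, SE 0.21, adjusted p 0.0327), with LRP1 KO 4 the lowest of the KO libraries. Its closest relative Smoc2, like it a SPARC-related calcium-binding protein, fell from between 44.3 and 81.3 FPKM in WT to between 17.4 and 40.4 FPKM (-1.21, SE 0.26, adjusted p 0.0208). Wisp1, a further CCN gene (also Ccn4), rose (0.54, SE 0.13, adjusted p 0.0279), as did Fstl1. Spock2, which encodes the proteoglycan testican-2, fell from between 25.2 and 34.1 FPKM in WT to between 12.2 and 18.9 FPKM in LRP1 KO libraries (-0.95, SE 0.14, adjusted p 0.00524). Tnxb, the tenascin-X gene, fell (-0.54, SE 0.14, adjusted p 0.0327). Thus the SPARC-related genes of the list were called on both sides of 0. Counts for this list were 7 without LRP1 KO 4, 3 without WT 3, 2 without LRP1 KO 1, and 1 without WT 2, LRP1 KO 2 or LRP1 KO 3, while those over all genes were 2959, 914, 478, and 433 to 502.

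Sparcl1, the nearest relative of Sparc, is added after its values were seen. It measured 45.1, 92.5, 96.8 and 65.6 FPKM for the WT group and 3.42, 20.4, 7.67 and 65.4 FPKM for the LRP1 KO group. LRP1 KO 1 to 3 lay below all WT libraries and LRP1 KO 4 was within their range, and the change of -2.25 (SE 0.71) did not pass (adjusted p 0.0628). Without LRP1 KO 4 its adjusted p was 0.00353.

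Cyr61, Ctgf, Thbs1 and Tnc are known to respond to YAP, SRF or TGF-beta, and 28 other genes found in the table, of 29 listed as targets of these pathways, were read beside them. Of the 27 tested, 10 were called, 9 higher and 1 lower, against 6.27% and 7.31% of all genes, and the median log2 fold change was 0.11. The others did not pass, Amotl2, Axl, Nuak2, Vcl, Srf and Fos among them. Of the members named here, Thbs1 had a lower estimate (-0.39), and neither Thbs1 nor Tnc was called. Ankrd1, a target of YAP, measured 28.7 to 39.8 FPKM for the WT group and 83.8, 71.7, 78.3 and 47.1 FPKM for the LRP1 KO group (log2 fold change 1.11, SE 0.18, adjusted p 0.00723). In Ankrd1, as in Ctgf and Cyr61, LRP1 KO 4 was the nearest to WT. The same held for Itga6, Cd44 and Smoc1 of the other lists and on the first principal component.

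The contractile genes Cnn1 (1.20, SE 0.12, adjusted p 0.000628), Acta2 (0.95, SE 0.18, adjusted p 0.0129) and Tagln (0.88, SE 0.15, adjusted p 0.00847) rose as well, and these 3 also belong to the list of mural cell markers. Jun, Tgfb2, Crim1, Fstl3 and Smad7 were the other genes called higher. The 1 gene called lower was Ltbp2 (-0.70, SE 0.14, adjusted p 0.0176). Between 7 and 12 genes of the list were called when single libraries were left out, while the count over all genes ranged from 433 to 2959.

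**Figure D4:**
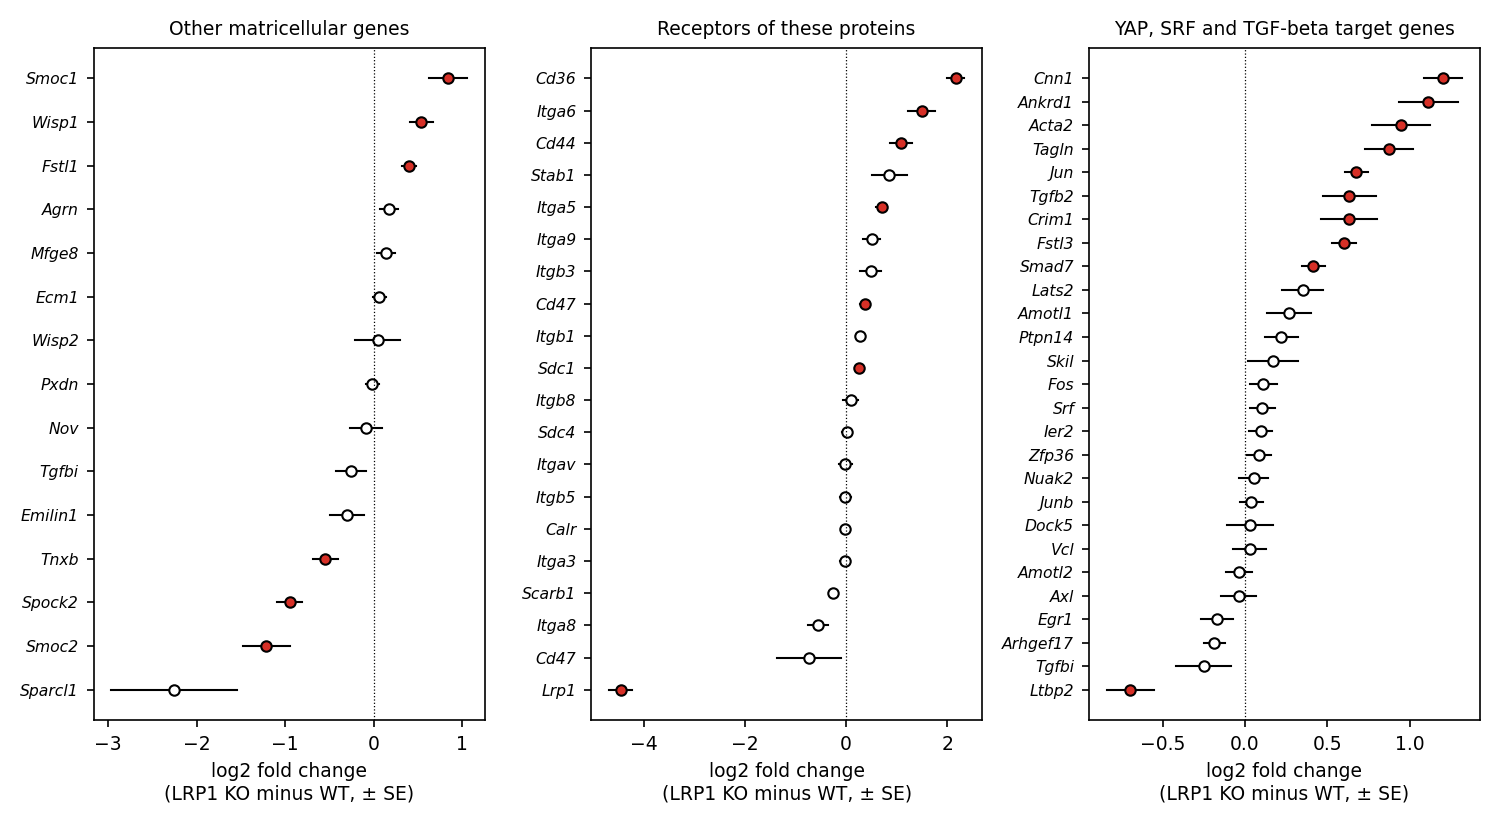
Log2 fold change (LRP1 KO minus WT, on log2 of FPKM + 1, ± SE) of the tested genes of 3 lists, with red points for an adjusted p under 0.05 and open points otherwise. Calls lie on both sides of 0 among the other matricellular genes (3 and 3) and mostly above 0 among receptors (6 of 7) and pathway targets (9 of 10).

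Markers of several cell types moved with these genes, and their counts are to be read against 6.27% of all genes called higher and 7.31% called lower. Mural markers summed to 670 to 836 FPKM in WT and 1040 to 1627 FPKM in LRP1 KO libraries, with 4 of 8 tested genes higher, while their defining gene Pdgfrb did not pass (-0.31, adjusted p 0.221) and Rgs5 was at or below 1.26 FPKM. Macrophage markers summed to 54.6 to 92.8 and 215 to 515 FPKM, with 6 of 8 tested genes higher, Cd68 and Csf1r among them and also Mrc1, which passed the filter through the KO libraries alone. Fibroblast markers had 2 of 11 lower, Pdgfra among them (-0.96, adjusted p 0.0367), and mesothelial markers had 2 of 5 lower, Msln and Upk3b. Without LRP1 KO 4, when 2959 genes were called over the whole table, 6 of 8 mural, 4 of 7 macrophage, 6 of 11 fibroblast and 4 of 5 mesothelial markers were called. Of 12 EC markers, 0 were called by limma, 9 had an unadjusted p under 0.05 (33.7% of all genes), all with higher estimates, and 11 were called without LRP1 KO 4.

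Markers of platelets, hepatocytes, lung epithelium and osteoblasts were low. Platelet markers, relevant because platelets store thrombospondin 1, summed to 4.07 to 5.55 FPKM in WT and 5.60 to 8.90 FPKM in LRP1 KO libraries, and Ppbp was at 0 in all. Hepatocyte markers reached at most 1.62 FPKM, lung epithelial markers 6.84 FPKM and osteoblast markers 3.56 FPKM in any library, and 1 of 2 tested lung epithelial genes was called lower. None of the 1 platelet, 2 cardiomyocyte and 1 osteoblast genes tested was called by limma, and 1, 1 and 0 of them had an unadjusted p under 0.05, against 33.7% of all genes. The platelet gene tested, Itgb3, was called without LRP1 KO 4 (adjusted p 0.0235), and Pf4, too low to be tested, measured 0.623 to 0.725 FPKM for the WT group and 0.825 to 2.75 FPKM for the LRP1 KO group. The cardiomyocyte sum of 87.4 to 155 FPKM, in WT near that of the EC markers, was mostly Tnnt2, and Myh6 was at or below 1.51 FPKM. The part of these cell types in the changes of Postn, Ctgf and Cyr61 was not tested.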

How the data were processed

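RNA sequencing was analysed from 8 libraries, 4 WT and 4 LRP1 KO, grouped by sample title. The submitters' processing notes name TopHat2, Cufflinks and mm10, whereas the study's methods describe trimGalore, STAR, featureCounts and edgeR, which use counts. The authors deposited one table of non-integer values, taken here as FPKM from Cufflinks. The header names no unit. Its columns were taken as quantile normalized, because sorted values differed between libraries by a median of 0.574% and at most 3.33%. Counts and depth were therefore unknown, and no count model was used.

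Values were transformed to log2(FPKM + 1). Genes with at least 1 FPKM in at least 4 libraries (11389 of 22520) were tested in limma 3.58.1 (R 4.3.3) with group as the only term and a variance trend, with Benjamini-Hochberg adjustment over all genes tested. A gene was called at an adjusted p under 0.05, and under a stricter rule if the log2 fold change also reached 1 in size. The scale understates the changes of low genes. Single genes were also compared by exact two-sided permutation of the 8 libraries. The fit was tested on simulated data.

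The members and the gene lists were chosen with earlier results of these data known. A gene that is not reported here was left out of the list of pathway targets. All members are named, and values were given for at most 5 called genes per related list, those with the largest absolute change, and for Lrp1. For each called member, the 2 tested genes with the smallest root mean square difference in log2(FPKM + 1) after subtraction of the WT mean were named. Locations were read from GENCODE M21 on GRCm38, in which 21740 gene IDs matched, and promoters from RefSeq. Alternatives were a pseudocount of 0.1, no filter, median-ratio scaling, no variance trend, a replicate block, and leaving out each library.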

Additional observations from a re-analysis of the deposited data

How the results depend on the processing

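Without the filter on low values 1 member (Postn) was called, with Cyr61 at 0.50 (adjusted p 0.0510) and Ctgf at 0.59 (adjusted p 0.0697). The values do not settle whether the replicate numbers of the titles pair the libraries. Same-numbered deviations from the group means correlated at 0.158, 0.141, 0.34 and -0.312 for numbers 1 to 4. LRP1 KO 1, 2 and 3 each correlated best with the WT library of their own number. LRP1 KO 4 correlated best with WT 2 (0.377). With the replicate number as a block, 1013 genes were called against 1547. In that fit Ctgf, still at 0.59, had an adjusted p of 0.0547, and Thbs1, still at -0.39, had 0.0617. Postn and Cyr61 stayed called. Leaving out 1 library at a time gave 433 to 2959 genes called, the highest without LRP1 KO 4 and the lowest without LRP1 KO 2, and 113 to 312 at 2-fold or more (184 with all libraries). These fits gave 1 to 4 members called (4 without LRP1 KO 4, 1 without WT 1, WT 2, LRP1 KO 1, LRP1 KO 2 or LRP1 KO 3), 1 to 7 other matricellular genes, 4 to 11 receptors and 7 to 12 pathway targets. Over the same fits, Cyr61 ranged from 0.44 to 0.62, Ctgf from 0.49 to 0.70, Tnc from 0.73 to 1.28, Postn from 0.88 to 1.08, Thbs1 from -0.54 to -0.24 and Thbs3 from -0.62 to -0.31. Signs turned for Thbs2 (-0.25 to 0.0004), Spp1 (-0.14 to 0.20) and Fn1 (-0.067 to 0.20), none of which was called in any fit. A pseudocount of 0.1, median-ratio scaling (factors 0.995 to 1.02) and the fit without a variance trend changed no call among the members. Each of these fits also had 1 library fewer, and why single libraries moved the calls was not tested. Depth is unknown, so no limit of detection can be given for Thbs3 or other low genes.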
